A study of Canis lupus familiaris with 12 samples.

Results

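The genes described here are 10 transcripts by which inhibitory interneurons of the hippocampus are recognised: GAD1, GAD2 and SLC32A1 of the GABA machinery, the peptide precursors SST, NPY, VIP and CCK, the calcium-binding proteins PVALB and CALB2, and the secreted glycoprotein RELN. They were taken as a list of symbols. All 10 of 10 were found, 1 row each, among the 31158 gene models of the hippocampal expression table. All 10 also passed the filter on low values, a mean of at least 0.5 RPKM over the 6 libraries, which left 16090 models for testing.

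The study asked how atrial fibrillation relates to cognitive impairment in dogs. Hippocampus came from beagles of 2 arms, 3 samples each: rapid atrial pacing over 2 weeks, in which the atria are driven electrically at a high rate, and a sham operation. Both arms were beagles, and the labels give no genotype, age or sex and do not say whether each sample is a separate dog, so the p-values measure the spread between these samples, which may be technical. The series also holds exosome microRNA, not used here.

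Interneurons are a minority of hippocampal neurons and release GABA, the main inhibitory transmitter. Glutamate decarboxylase makes GABA from glutamate, the vesicular transporter loads it into synaptic vesicles, and peptides or calcium-binding proteins divide the cells into classes with different targets: parvalbumin cells onto the soma and axon start of principal cells, somatostatin cells mainly onto dendrites, and many VIP and calretinin cells onto other interneurons. Some of the markers are not confined to interneurons. CCK is also made by pyramidal cells, and RELN is also the product of Cajal-Retzius cells.

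The libraries held 35003483 to 51789497 assigned reads. The whole-table comparison of pacing with sham by limma called 4 of 16090 genes, and 95 without sham replicate 1. The tissue carried markers of forebrain principal cells, including SLC17A7, the vesicular glutamate transporter of forebrain neurons, at 48.6 to 95.3 RPKM and NEUROD6 at 188 to 345, while the 5 dentate granule cell markers were uneven: NEUROD1 was at 6.30 to 12.2, PROX1 at 4.82 to 7.90, C1QL2 at 0.915 to 1.43, DSP at 0.261 to 0.838, and TDO2, which did not pass the filter, at 0.109 to 0.173. The dopamine receptor genes DRD1 and DRD2, which mark the GABA neurons of the striatum, were at 0.108 to 0.699 and 0 to 0.101 RPKM, and 3 of the 7 striatal markers passed the filter (PPP1R1B at 55.6 to 92.8 RPKM, PDE10A at 2.36 to 5.51, RGS9 at 0.630 to 1.15). The sham libraries were less alike than the pacing libraries. Sham replicate 2 had the highest mean of the 8 oligodendrocyte markers, at 0.70 on the log2 scale relative to the mean of the 6 libraries, and sham replicate 3 the lowest, at -0.63. The pacing libraries lay from -0.06 to 0.15.

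RPKM scales the reads of a gene by the length of its exons and by the assigned reads of the library. Levels of genes of unlike length can thus be set side by side. The gene models ran from 475 exon bases for NPY to 11454 for RELN, and the part of the models in the order was not tested. Over the 6 libraries the order of mean levels was NPY (55.1 RPKM), GAD1 (37.2), SST (36.1), GAD2 (33.4), CCK (26.7), VIP (20.1), RELN (10.8), PVALB (10.3), SLC32A1 (1.80) and CALB2 (1.14). NPY was more abundant than 92.7% of the genes tested, and CALB2 than 15.9%. Neighbours in this order were often not apart. GAD1 exceeded SST in 3 of 6 libraries, SST exceeded GAD2 in 4, RELN exceeded PVALB in 3 and SLC32A1 exceeded CALB2 in 4. VIP lay above RELN in all 6 libraries and PVALB above SLC32A1 in all 6, where the largest step of the order lay, 5.69-fold.

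**Figure D1:**
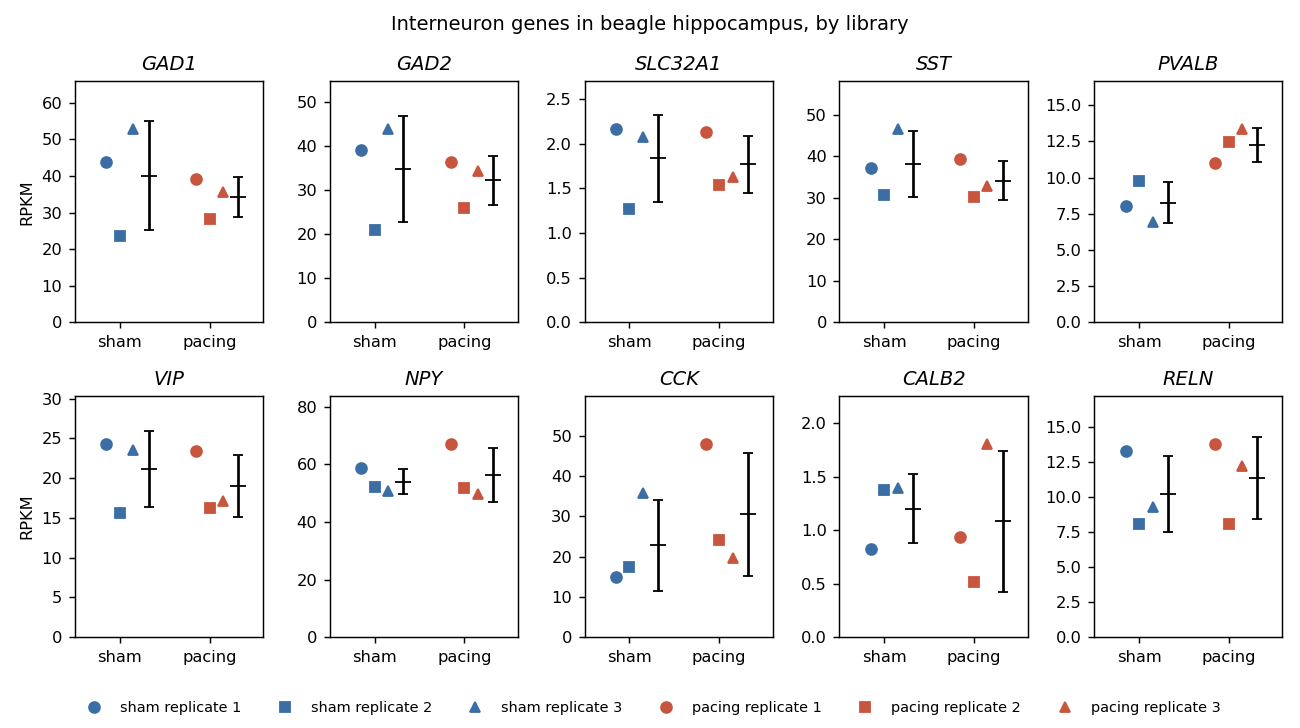
RPKM of each interneuron gene in each library, with sham in blue and pacing in red, the replicate number as the symbol, and the arm mean with its SD (n = 3) in black; each axis starts at 0 and has its own scale. The 3 pacing libraries lie above the 3 sham libraries for PVALB, and the arms overlap for the other 9 genes.

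Of the 10 genes, 0 were called in the comparison of pacing with sham (limma, adjusted p at or under 0.05), where 0.0249% of all genes tested were called. By the fitted difference 4 were higher and 6 lower in pacing, and 58.9% of all genes tested were lower. The median difference over the 10 genes was -0.04 on the log2(RPKM + 1) scale, the same to this precision as the -0.04 over all genes tested. PVALB was the 1 gene with every pacing library above every sham library, which held for 4.92% of genes tested, and the 1 gene with an unadjusted p under 0.05, which held for 9.15%. In 0 of the 10 was every pacing library below every sham library, against 11.3% of genes tested.

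**Figure D2:**
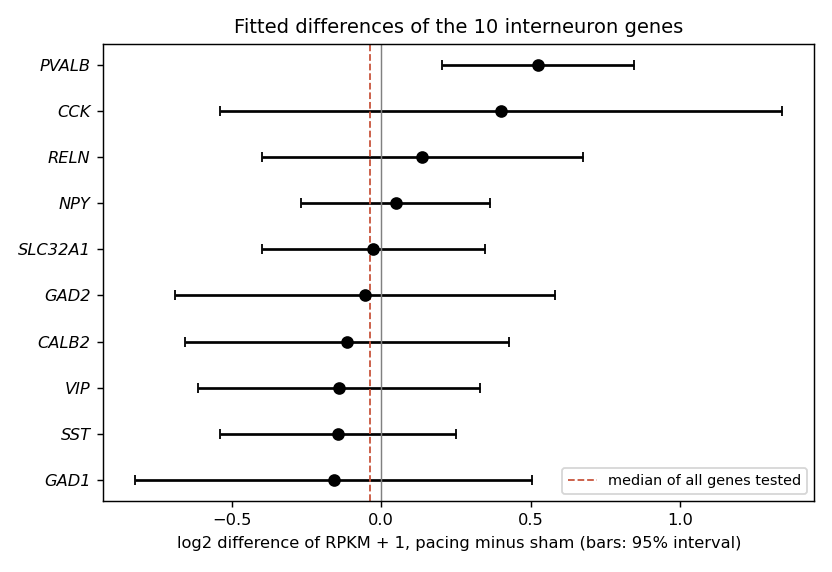
Fitted difference of log2(RPKM + 1), pacing minus sham, for each interneuron gene with its 95% interval, and the median of all genes tested as a dashed line. The interval of PVALB, 0.20 to 0.85, lies above 0 before adjustment for the number of genes; the other 9 intervals include 0.

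GAD1 and GAD2 encode the larger and the smaller form of glutamate decarboxylase. GAD1 lies on chromosome 36 from 15351289 to 15391701 on the plus strand and GAD2 on chromosome 2 from 7365708 to 7450893 on the minus strand (coordinates of the deposited table, whose sequence names are those of CanFam3.1). GAD1 stood at 43.8, 23.7 and 52.8 RPKM in sham replicates 1 to 3 and at 39.1, 28.2 and 35.5 in pacing replicates 1 to 3. The highest and the lowest library were both sham, and the pacing libraries lay between them. The arm means were 34.3 ± 5.58 RPKM in pacing and 40.1 ± 14.9 in sham (SD, n = 3 per arm; log2 difference -0.16, 95% interval -0.82 to 0.51, limma adjusted p = 0.879).

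GAD2 stood at 39.2, 21.0 and 43.8 RPKM in the sham libraries and at 36.3, 26.0 and 34.3 in the pacing libraries, in the same order of libraries as GAD1. Its arm means were 32.2 ± 5.48 and 34.7 ± 12.01 RPKM (SD, n = 3 per arm; log2 difference -0.05, 95% interval -0.69 to 0.58, limma adjusted p = 0.960). The direction for both enzymes depended on single libraries. Without sham replicate 2 the differences of GAD1 and GAD2 were -0.49 and -0.37, and without sham replicate 3 they were 0.07 and 0.14. GAD2 also stood above 0 without sham replicate 1 (0.06) and without pacing replicate 2 (0.09). In bulk tissue fewer cells of a type and less RNA per cell cannot be told apart, for these genes or for any below.

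The ratio of GAD1 to GAD2 varied little, from 1.04 to 1.21. It was 1.08, 1.09 and 1.04 in the pacing libraries and 1.12, 1.12 and 1.21 in the sham libraries, so that the arms did not overlap. This was the 1 such ratio of 13 computed, and it was picked out after the values were seen. It was not tested, and 3 libraries against 3 allow no exact permutation p under 0.1.

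SLC32A1, which encodes the vesicular GABA transporter (chromosome 24 from 27142153 to 27146986, plus strand), had 147 to 278 reads per library. It stood at 2.16, 1.27 and 2.07 RPKM in sham and at 2.14, 1.54 and 1.63 in pacing, and sham replicate 2 was again the lowest library. The arm means differed by less than either SD, 1.77 ± 0.323 against 1.84 ± 0.488 RPKM (SD, n = 3 per arm; log2 difference -0.03, 95% interval -0.40 to 0.35, limma adjusted p = 0.968). GAD1 stood 18.3 to 25.5 times as high as SLC32A1 in RPKM, and the ratio overlapped between the arms.

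SST encodes the precursor of somatostatin (chromosome 34 from 20063091 to 20064520, minus strand). It stood at 37.3, 30.6 and 46.5 RPKM in sham and at 39.3, 30.2 and 32.9 in pacing. The arms overlapped, with means of 38.1 ± 7.96 in sham and 34.1 ± 4.66 in pacing (SD, n = 3 per arm; log2 difference -0.14, 95% interval -0.54 to 0.25, limma adjusted p = 0.801). Without sham replicate 3, its highest library, the difference was 0.0053.

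NPY, the precursor of neuropeptide Y (chromosome 14 from 37824579 to 37831289, plus strand), was the most abundant of the 10 genes and the steadiest, with a coefficient of variation of 12.1% over the 6 libraries. It stood at 58.9, 52.0 and 50.9 RPKM in sham and at 67.0, 51.9 and 49.7 in pacing. The highest and the lowest library were both pacing. The log2 difference was 0.05 (95% interval -0.27 to 0.37, limma adjusted p = 0.925), and it was -0.08 without pacing replicate 1.

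VIP, the precursor of vasoactive intestinal peptide (chromosome 1 from 42941655 to 42950160, plus strand), stood at 24.3, 15.6 and 23.5 RPKM in sham and at 23.5, 16.3 and 17.2 in pacing. The libraries fell into a higher set of 3, sham replicates 1 and 3 and pacing replicate 1, and a lower set of 3, so the arms were mixed. The log2 difference was -0.14 (95% interval -0.61 to 0.33, limma adjusted p = 0.845). It was -0.33 without sham replicate 2 and -0.03 without sham replicate 1.

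CCK, the precursor of cholecystokinin (chromosome 23 from 11414254 to 11419990, minus strand), varied most in relative terms, with a coefficient of variation of 47.8%. It stood at 15.1, 17.5 and 35.9 RPKM in sham and at 48.0, 24.0 and 19.6 in pacing. The 2 highest libraries were pacing replicate 1 and sham replicate 3, and the other 4 lay between 15.1 and 24.0. Its difference of 0.40 was the second largest of the 10 genes, but the 95% interval ran from -0.54 to 1.34 (limma adjusted p = 0.765), and without pacing replicate 1 the difference was 0.03.

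PVALB encodes parvalbumin, the calcium buffer of fast-spiking basket and axo-axonic cells, and lies on chromosome 10 from 27655896 to 27674309 on the plus strand. It stood at 8.07, 9.77 and 6.96 RPKM in sham and at 10.98, 12.4 and 13.3 in pacing. Every pacing library was above every sham library. The gap between the arms was narrow, between 9.77 in sham replicate 2 and 10.98 in pacing replicate 1. The reads behind these values were 254 to 505 in sham and 466 to 508 in pacing. The arm means were 12.3 ± 1.19 RPKM in pacing and 8.27 ± 1.42 in sham (SD, n = 3 per arm; log2 difference 0.52, SE 0.14, limma unadjusted p = 0.00606 and adjusted p = 0.378).

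PVALB did not pass the threshold in any alternative, with limma adjusted p-values from 0.163 to 0.998, and its difference stayed between 0.38 and 0.64. Its arms overlapped once the levels were divided by the library's mean of 12 pan-neuronal markers. PVALB then stood at 7.73, 12.4 and 5.95 in sham and at 10.5, 12.9 and 13.1 in pacing (log2 difference 0.49, limma adjusted p = 0.998). The markers did not all follow their mean, whose factor was 0.791 in sham replicate 2 and 1.17 in sham replicate 3. RBFOX3 was at 13.8 and 12.8 RPKM in these libraries and ELAVL3 at 94.3 and 85.2. The other markers were lower in sham replicate 2 than in sham replicate 3. The ratio of PVALB to GAD1 overlapped as well, at 0.184, 0.413 and 0.132 in sham and 0.281, 0.442 and 0.375 in pacing. In both measures sham replicate 2 lay among the pacing libraries and the other 2 sham libraries below all of them. The scaling and the ratios were chosen after the data were seen.

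CALB2, which encodes calretinin (chromosome 5 from 77178158 to 77205663, plus strand), was the scarcest of the 10, at 26 to 88 reads per library. It stood at 0.828, 1.38 and 1.40 RPKM in sham and at 0.933, 0.515 and 1.81 in pacing, where the lowest and the highest library were both pacing. The log2 difference was -0.11 (95% interval -0.65 to 0.43, limma adjusted p = 0.896).

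RELN encodes reelin (chromosome 18 from 16275822 to 16773875, plus strand), and its gene model of 11454 exon bases collected the most reads of the 10, 3796 to 7585 per library. It stood at 13.3, 8.04 and 9.30 RPKM in sham and at 13.8, 8.10 and 12.2 in pacing. The arms overlapped over nearly their whole range (log2 difference 0.14, 95% interval -0.40 to 0.67, limma adjusted p = 0.869). Of 6 further markers of Cajal-Retzius cells, 0 passed the filter, and the highest value of any of them in any library was 0.593 RPKM, for EBF3. TP73 was at 0.0735 to 0.362 RPKM, LHX1 at 0 to 0.0263 and LHX5 at 0 to 0.0425. None of the 10 gene models shares exon bases with another model of the table, on either strand.

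The 10 genes did not vary together as 1 block. GAD1, GAD2, SLC32A1, SST and VIP were each above their 6-library mean in sham replicates 1 and 3 and pacing replicate 1, and below it in the other 3 libraries but for GAD2 in pacing replicate 3. PVALB, NPY, CCK, CALB2 and RELN each departed from this in at least 1 library. Over the 6 libraries GAD1 and GAD2 had Pearson r = 0.986 and Spearman rho = 1 on the log2(RPKM + 1) scale (exact permutation p = 0.00139 for r, the smallest that 6 libraries can give, and 0.00278 for rho). SLC32A1 and VIP had r = 0.972 and rho = 0.943 (exact permutation p = 0.00278 and 0.0167). Without pacing replicate 2 and sham replicate 2, the libraries farthest from the median of GAD2 and also of VIP, r was 0.9997 and 0.994. SST was closest to GAD1, at r = 0.918 and rho = 0.886 (exact permutation p = 0.00972 and 0.0333). For this pair r was 0.852 without pacing replicate 2 and sham replicate 3, the libraries farthest from the median of SST. Over all 6 libraries the highest r of PVALB with another member was 0.04, with RELN (rho = 0.03, exact permutation p = 0.942 and 1; r = 0.556 without pacing replicate 2 and sham replicate 2). With CCK it was -0.06 (rho = 0.09, exact permutation p = 0.911 and 0.919), but r = 0.844 over the 4 libraries left without pacing replicate 1 and sham replicate 3, so the value rests on those 2 libraries. The r of PVALB with SST was -0.725 (rho = -0.60, exact permutation p = 0.108 and 0.242). That r was -0.403 without pacing replicate 3 and sham replicate 3, the libraries farthest from the median of PVALB.

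**Figure D3:**
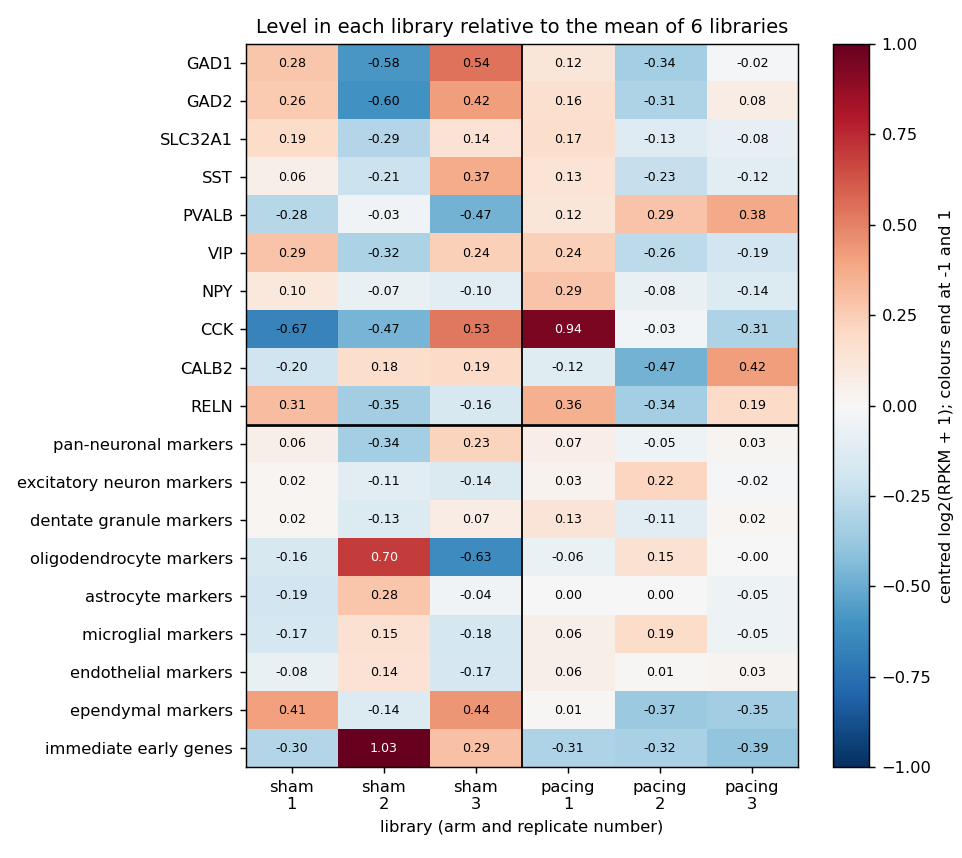
Level of each interneuron gene (upper rows) and mean level of cell type and immediate early gene lists (lower rows) in each library, as centred log2(RPKM + 1), that is the difference from the mean of the 6 libraries; red is above and blue below that mean. Sham replicate 2 is low for GAD1 (-0.58) and GAD2 (-0.60) and high for oligodendrocyte markers (0.70), and sham replicate 3 is the reverse.

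The levels of GAD1 and GAD2 varied with the means of the pan-neuronal and the oligodendrocyte markers. Ranked over the 6 libraries, GAD1 and GAD2 ran exactly opposite to the mean of the 8 oligodendrocyte markers, with rho = -1 for each and r = -0.960 and -0.945 (exact permutation p = 0.00278 for each rho and 0.00139 for each r). Without sham replicates 2 and 3, the libraries farthest from the median of the marker mean, r was -0.998 and -0.977. With the mean of 12 pan-neuronal markers GAD1 had r = 0.935 and rho = 0.943 and GAD2 r = 0.950 and rho = 0.943 (exact permutation p = 0.00278 for each r and 0.0167 for each rho). Without the same 2 libraries, r was 0.948 and 0.973. The 2 marker means ran nearly opposite to each other, so these relations are not separate results. In sham replicate 2 the pan-neuronal mean was -0.34 and the oligodendrocyte mean 0.70, and in sham replicate 3 they were 0.23 and -0.63. No relation was computed with the mean of the 7 tested excitatory neuron markers. That mean was lowest in sham replicate 3 (-0.14), where GAD1 was highest (0.54 relative to its 6-library mean). It was highest in pacing replicate 2 (0.22), where GAD1 was at -0.34. In sham replicate 2 both were low, at -0.11 and -0.58. Of 65 relations computed, the 45 pairs of members and each member with both marker means, 7 had a Benjamini-Hochberg adjusted p at or under 0.05 for r and 0 for rho, where the smallest adjusted p was 0.0602. The GAD1 and GAD2 relations just given had adjusted values of 0.0301, as did SLC32A1 with VIP. The adjusted value was 0.0387 for GAD2 with VIP and 0.0527 for SST with GAD1. GAD2 and VIP had r = 0.868 and rho = 0.943 (exact permutation p = 0.00417 and 0.0167). Their r was 0.679 without pacing replicate 2 and sham replicate 2, the libraries farthest from the median of VIP.

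PVALB did not share the pattern of the enzymes. Its r with the oligodendrocyte mean was 0.495 (rho = 0.60, exact permutation p = 0.324 and 0.242; r = 0.785 without sham replicates 2 and 3), and within sham its order of libraries was the reverse of that of GAD1. All values are shares of a library's reads, so a larger share of one cell type lowers the others, and the part of tissue composition in the differences between arms was not tested.

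**Figure D4:**
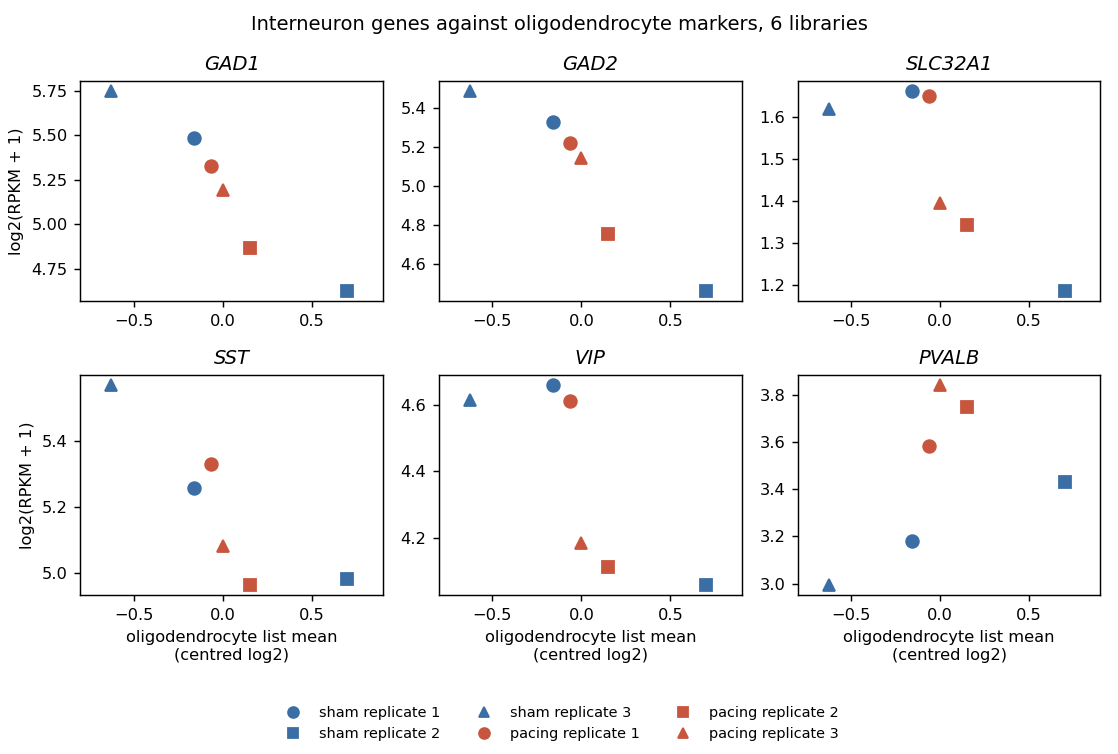
Level of 6 interneuron genes as log2(RPKM + 1) against the mean of the 8 oligodendrocyte markers (centred log2), 1 point for each of the 6 libraries, with sham in blue and pacing in red; the vertical axes have different scales and do not start at 0. GAD1 and GAD2 descend from sham replicate 3 to sham replicate 2 without an exception, and for PVALB the 3 pacing points lie above the 3 sham points.

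By likeness to the mean of GAD1, GAD2 and SLC32A1, the closest of 7107 named genes at 5 RPKM or more were FYN, a kinase also in the reelin list below (r = 0.994), MADD (0.991), CDK5R2 (0.989), IFT22 (0.988) and SLIT2 (0.986), each over the same 6 libraries and given as a description. SLIT2 ran from 11.2 RPKM in sham replicate 2 to 39.0 in sham replicate 3, and FYN from 67.1 to 77.1 between the same libraries.

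Around the 10 genes, 0 genes of 6 further lists of the GABA and peptide systems were called. Of the 10 genes that make, take up and break down GABA, 8 passed the filter, and all 8 were lower in pacing by the fitted difference. Their differences were -0.19 to -0.02 (median -0.08), beside 58.9% of all genes lower and a median of -0.04 over all genes. An unadjusted p under 0.05 was found for 0 of 8. ABAT, the transaminase that degrades GABA, was the furthest, at 31.0 ± 3.60 RPKM in pacing and 35.8 ± 6.88 in sham (SD, n = 3 per arm; limma adjusted p = 0.728). The glutamine transporter SLC38A3 had a log2 difference of -0.13 (limma adjusted p = 0.782). The arms overlapped for all 8. The GABA transporters SLC6A12 and SLC6A13 did not pass the filter and had higher means in pacing. SLC6A12 was at 0.386 to 0.401 RPKM in pacing and 0.340 to 0.378 in sham, without overlap. SLC6A13 averaged 0.381 in pacing and 0.291 in sham, with overlap. With no filter on low values, 8 of 10 were lower. The count was 6 of 8 with median-of-ratios scaling, under which 49.5% of all genes were lower, and 4 of 8 without sham replicate 3.

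The transcription factors that specify and maintain interneurons were lower in pacing in 13 of 13 tested, with differences of -0.55 to -0.04 and a median of -0.28, beside -0.04 over all genes and the 58.9% of all genes that were lower. None passed the adjusted threshold. An unadjusted p under 0.05 was found for 2 of 13, beside 9.15% of all genes, and every pacing library was below every sham library for 2 of 13, beside 11.3% of all genes, so neither count stands far from the background. DLX5, a homeobox factor of the interneuron lineage, stood at 0.802, 0.570 and 0.937 in sham and at 0.631, 0.425 and 0.286 in pacing, with overlap (-0.29, limma adjusted p = 0.551).

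All tested factors were lower in 14 of 17 alternatives, and 12 of 13 with quantile normalization, without pacing replicate 2 and without sham replicate 3. Sham replicate 3 was the library furthest from the rest. The mean of the 13 was 0.41 above the 6-library mean there, and from -0.29 to 0.05 in the other libraries. Ependymal markers, of the ciliated cells of the ventricle wall, were also lower in pacing in 7 of 7 tested (median -0.49), beside 58.9% of all genes. Their list means were 0.41, -0.14 and 0.44 in sham and 0.01, -0.37 and -0.35 in pacing. Immediate early genes were likewise lower in 7 of 7 tested (median -0.54), beside the same 58.9%. By library this list averaged -0.30, 1.03 and 0.29 in sham and -0.31, -0.32 and -0.39 in pacing. Sham replicate 1 thus lay close to the pacing libraries. Of 6 choroid plexus markers 3 were tested, and all 3 were higher in pacing (median 0.38), beside 6608 of 16090 genes. The arms overlapped for each of them. Here the library means were -1.55, 1.04 and -0.45 in sham and 0.36, 0.41 and 0.19 in pacing. The highest and the lowest library were both sham. The part of ventricle wall in the transcription factor values was not tested.

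**Figure D5:**
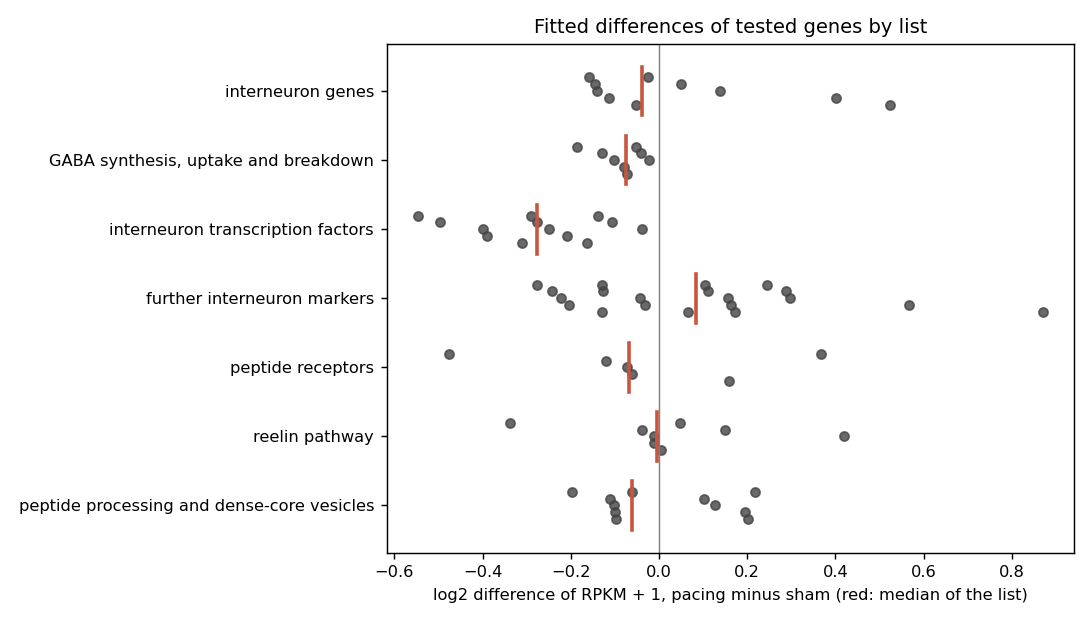
Fitted difference of log2(RPKM + 1), pacing minus sham, for every tested gene of the interneuron list and of the 6 related lists, 1 point per gene, with the list median as a red line; vertical placement within a list has no meaning. The 13 transcription factors all lie below 0, and the point furthest to the right is TAC1.

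Among 25 further interneuron markers, 20 were tested, 11 higher and 9 lower in pacing (median 0.08). TAC1 and NOS1 were the 2 of 20 with an unadjusted p under 0.05, close to the 9.15% of all genes. TAC1, the precursor of substance P, stood at 1.29, 1.70 and 0.692 RPKM in sham and at 2.00, 3.53 and 3.71 in pacing. NOS1, the neuronal nitric oxide synthase, stood at 7.17, 4.26 and 4.92 in sham and at 9.51, 7.27 and 8.54 in pacing. For these 2 of 20 genes every pacing library was above every sham library, beside 4.92% of all genes, and by a narrow margin for NOS1, 7.27 against 7.17. The differences were 0.87 for TAC1 and 0.57 for NOS1 (limma adjusted p = 0.383 and 0.449). Against pan-neuronal markers NOS1 kept its arms apart, at 4.21 to 6.87 in sham and 7.52 to 9.06 in pacing, and those of TAC1 overlapped, at 0.592 to 2.15 and 1.90 to 3.65. PTHLH went the other way, at 1.05 ± 0.320 RPKM in pacing and 1.46 ± 0.135 in sham (SD, n = 3 per arm; -0.28, limma adjusted p = 0.586). It was the 1 of 20 with every pacing library below every sham library, beside 11.3% of all genes.

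Of the receptors for the 4 peptides, 6 of 12 were tested, 2 higher and 4 lower in pacing (median -0.07). SSTR1 was the 1 of 6 with every pacing library below every sham library, beside 11.3% of all genes. It stood at 1.10, 1.18 and 1.38 RPKM in sham and 0.900, 0.242 and 0.713 in pacing (log2 difference -0.48, limma adjusted p = 0.479). Its mean over the 6 libraries, 0.919 RPKM, was not far above the filter at 0.5. SSTR2, a more abundant somatostatin receptor, had its arms mixed, at 21.4, 7.28 and 12.2 in sham and 17.1, 15.4 and 16.6 in pacing (0.37, limma adjusted p = 0.729). Its difference was 0.02 without sham replicate 2 and 0.73 without sham replicate 1. The cholecystokinin receptor CCKBR stood at 20.5 ± 1.61 in pacing and 22.9 ± 5.82 in sham (SD, n = 3 per arm; -0.12, limma adjusted p = 0.862), with a difference of -0.34 without sham replicate 3.

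The 8 genes of the reelin pathway divided evenly, 4 higher and 4 lower in pacing (median -0.0041), but 1 of 8 was lower with median-of-ratios scaling, and likewise without sham replicate 3. LRP8, a reelin receptor, stood at 20.2, 12.7 and 13.0 RPKM in sham and at 18.6, 23.2 and 19.5 in pacing, where sham replicate 1 lay among the pacing libraries (log2 difference 0.42, limma adjusted p = 0.550). The other receptor, VLDLR, stood at 4.82 ± 0.278 in pacing and 4.31 ± 0.995 in sham (SD, n = 3 per arm; 0.15, limma adjusted p = 0.763), and its difference was 0.01 without sham replicate 2 and 0.28 without sham replicate 1. The adaptor CRKL stood at 3.31, 4.63 and 4.98 in sham and at 3.08, 3.38 and 3.01 in pacing (-0.34, limma adjusted p = 0.543). Of 11 genes that process peptides or build dense-core vesicles, 5 were higher and 6 lower (median -0.06), and 3 were lower without sham replicate 3. PAM, which amidates peptides such as neuropeptide Y, had a difference of 0.19, the granin SCG3 of 0.20 and the prohormone convertase PCSK1 of -0.20 (limma adjusted p = 0.641, 0.675 and 0.690).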

How the data were processed

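Messenger RNA was sequenced from 6 hippocampus samples, 3 per arm. The tools named in the submitters' processing notes are Trimmomatic 0.36, STAR 2.5.3a and featureCounts; for the annotation release and the strand setting, none is given in the sources used here. The authors deposited RPKM for 31158 gene models with their exon length; RPKM times length gave whole reads (largest deviation 6.52e-09 read) for 100% of values, hence the read totals. Gene identity and coordinates are those of the deposited table; chromosome numbers come from symbols shared with RefSeq assembly UU_Cfam_GSD_1.0. In R 4.3.3, limma 3.58.1 (trend) was fitted across all genes averaging 0.5 RPKM or more, on log2(RPKM + 1) without a block, and adjusted by Benjamini-Hochberg at 0.05; fold differences understate those of low genes. Correlations over libraries used exact permutation of all pairings, two-sided. The fit was also run on simulated data that gave all genes and both arms the same spread setting. The sham libraries here were less alike than the pacing libraries, so that run does not cover these conditions. Named genes were all 10 members and, per related list, up to 3 with the smallest p; some genes under this rule are not reported here, though list counts include them; others named as values were chosen after their values were seen. The members and lists were chosen with earlier results of these data known. Of the related and marker lists, symbols with no row were not analysed here. No library pair of an arm agreed within sampling noise (chi-square per degree of freedom 10.4 to 164). Alternatives changed pseudocount, filter, scaling, weights, trend, test, block and libraries.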

Additional observations from a re-analysis of the deposited data

How the results depend on the processing

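The count of 0 called members held in all 17 alternatives. At 4 in the reported fit, the count of genes called over the whole table was 7 with no filter on low values, 23 with library weights, 7 with the replicate block, 7 when scaled to pan-neuronal markers (added after the data were seen) and 3 to 95 when a library was left out, 95 without sham replicate 1. The labels do not say whether a replicate number pairs samples. Same-numbered libraries had deviations from their arm means correlated at -0.11, 0.06 and -0.01 across genes. Sham replicate 3 was closest to pacing replicate 1 (0.27). These correlations cannot decide on a pairing, because the deviations within an arm cancel out and so constrain each other. Scaling by median of ratios moved the median gene to 0.0021 and the share of lower genes from 58.9% to 49.5%.

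Of 25 named genes, 9 changed sign somewhere, 7 of them members. SLC32A1 was at 0.0051 with median-of-ratios scaling and 0.034 with quantile normalization, and CCKBR at 0.054 with library weights. When a library was left out, the log2 difference ran from -0.49 to 0.073 for GAD1, -0.37 to 0.14 for GAD2, -0.18 to 0.061 for SLC32A1, -0.29 to 0.0053 for SST, -0.082 to 0.13 for NPY, -0.35 to 0.093 for CALB2, -0.0048 to 0.34 for RELN and -0.22 to 0.014 for SLC38A3. PVALB, VIP and CCK kept their direction in all 17. The fewest reads lay behind CALB2, 26 to 88 per library.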
